A study of Mus musculus with 9 samples.

Results

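The 9 genes of the brain endothelial barrier followed here were measured across 9 mouse brain RNA-seq libraries. They are Cldn5, Ocln, Tjp1, Mfsd2a, Slc2a1, Abcb1a, Pecam1, Cdh5 and Plvap. They were picked by symbol, and all 9 were found among the 20731 gene symbols of the deposited count table. The study induced cerebral venous sinus thrombosis (CVST) in mice and asked how ligation of the cervical lymph nodes, and then an inhibitor of endoplasmic reticulum stress, altered the brain on day 2. Per the methods, the animals were male C57BL/6J mice, and thrombosis of the superior sagittal sinus was set off with ferric chloride in every group. The CVST group (3 libraries) had thrombosis without ligation. The CVST+Ligation group (3 libraries, labelled CVST_Ligation) also had its deep cervical lymph nodes ligated. The 4-PBA group (3 libraries, labelled CVST_Ligation_4_PBA) had thrombosis, ligation and 4-phenylbutyric acid, an inhibitor of endoplasmic reticulum stress given by intraperitoneal injection. Per the methods, control mice were given the solvent. The sources place the 4-PBA dosing differently, before modelling in the methods and after ligation in the design text. No mouse without thrombosis is among these libraries, so every value describes a barrier that was sampled after thrombosis.

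The endothelial cells of brain vessels are sealed by tight junctions, carry few vesicles across the cell, and hold transporters that bring in nutrients and pump drugs out. Claudin-5 and occludin span the membrane at the tight junction, and ZO-1 ties them to the actin skeleton. Loss of this program, with a rise of the fenestration gene Plvap, is a known mark of leaky vessels, and Wnt and beta-catenin signalling from neural cells keeps the program on.

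The libraries held 18100739 to 25091498 counts, and 14746 genes passed the filter on low counts, all 9 barrier genes included. A level is given below as CPM, the count scaled to a common library size and adjusted for composition by the TMM method. Marker sums of brain regions differed between the libraries in ways the group labels do not name. The summed level of 8 hypothalamic neuron genes was 3.90 to 40.4 CPM in CVST, 4.43 to 54.3 CPM in CVST+Ligation and 293 to 566 CPM in 4-PBA. For 7 cortical excitatory neuron genes it was 2034 to 2442, 628 to 1869 and 739 to 1044 CPM in the same order, and for 7 cerebellar genes replicate 2 of CVST+Ligation reached 1468 CPM against at most 252 CPM elsewhere. The summed level of 7 striatal neuron genes was 1009 to 1702, 181 to 491 and 232 to 1182 CPM in the same order. For 6 midbrain dopamine neuron genes it was 18 to 19.5, 168 to 205 and 225 to 228 CPM. The ranges of CVST and CVST+Ligation did not overlap for the striatal, dopamine, cortical and cerebellar sums, and overlapped for the hypothalamic sum. The labels call the tissue brain and the design text cortical. The part of these regional differences in the barrier gene results was not tested.

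The sequences just before the gene starts are shown for Mfsd2a, the 1 member that passed an unadjusted test, and Cldn5, the most abundant junction member per length. Both runs are the 250 bases before the RefSeq start (GRCm38.p6), 5′ to 3′ on the strand of the gene, at chr4:122961189-122961438 (minus strand) for Mfsd2a and chr16:18776597-18776846 (plus strand) for Cldn5. Capitals mark matches to any of the short motifs searched on both strands.
Mfsd2a: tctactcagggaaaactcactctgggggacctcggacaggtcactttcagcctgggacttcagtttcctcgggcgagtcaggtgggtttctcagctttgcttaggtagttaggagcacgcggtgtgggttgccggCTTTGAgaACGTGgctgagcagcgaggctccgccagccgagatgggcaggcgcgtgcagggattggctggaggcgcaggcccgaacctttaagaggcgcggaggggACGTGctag
Cldn5: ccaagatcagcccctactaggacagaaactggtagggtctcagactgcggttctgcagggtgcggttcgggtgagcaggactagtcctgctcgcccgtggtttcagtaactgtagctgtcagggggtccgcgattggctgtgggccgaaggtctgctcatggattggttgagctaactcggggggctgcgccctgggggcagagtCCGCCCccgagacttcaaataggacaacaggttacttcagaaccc
In the Mfsd2a run the capitals are the TCF/LEF core CTTTGA at position -115 from the start and the hypoxia element ACGTG at -107 and -9. In the Cldn5 run they are the SP core GGGCGG, read on the opposite strand, at -45. These letters are common. Over all 32851 RefSeq windows of 300 bases, from 250 before to 50 after the start, CTTTGA occurs in 16%, ACGTG in 19.6% and GGGCGG in 35.7%. Windows were given for 6 of the members, with 2 for Ocln, and none for Pecam1, Cdh5 and Plvap. The RefSeq start of Abcb1a lies outside the GENCODE gene span given below. That of Tjp1 lies well inside its span, far from the 5′ end. Of these 7 windows, 5 held the SP core, 3 the hypoxia element, 2 the TCF/LEF core, and 1 each the ETS core CCGGAA, the FOX core GTAAACA and the TATA box TATAAA (14.9%, 3.65% and 13.6% of all windows). The SOX core AACAAT, in 10.7% of all windows, was in none of the 7. The TATA box match, in Slc2a1, is after the start, at position 28, as is the hypoxia match of Tjp1, at 42. A match is a run of letters and was not tested as a binding site.

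Per length, the glucose transporter and claudin-5 led the group. FPKM divides the count by the library total and by 1 length per gene. That length is a multiple of 3 for all 9 members, as coding lengths are, so reads in untranslated exons would raise a level. The order below therefore depends on the length used. Slc2a1, the glucose transporter GLUT1, was the highest at 69.4 ± 7.21 FPKM (SD, n = 9 libraries of all groups), followed by Cldn5 at 57.4 ± 11.1 FPKM. Tjp1 stood at 25.8 ± 4.56, Pecam1 at 19.7 ± 6.10 and Mfsd2a at 18.8 ± 4.29 FPKM. The order of these last was not firm, since Pecam1 was above Mfsd2a in 5 of 9 libraries. Abcb1a, at 11.1 ± 2.70 FPKM, was above Cdh5, at 10.9 ± 3.12 FPKM, in 4 of 9 libraries, so that these neighbours did not differ beyond their spread either. Ocln was at 8.81 ± 2.63 FPKM and below Cdh5 in 7 of 9 libraries, and Plvap was the lowest in every library at 2.20 ± 0.80 FPKM. The pairs Slc2a1 and Cldn5, Cldn5 and Tjp1, Mfsd2a and Abcb1a, and Ocln and Plvap kept their order in 9 of 9 libraries, and Tjp1 exceeded Pecam1 in 8 of 9. With the merged GENCODE exon length in place of the deposited one, a choice made after seeing the data, Slc2a1 (29.4), Cldn5 (26.5) and Tjp1 (18.2) still had the highest means, on the same scale per length. Cldn5 was then 1.45 times Tjp1, against 2.23 times with the deposited length, and Slc2a1 exceeded Cldn5 in 6 of 9 libraries. Pecam1 (7.04) came below Mfsd2a (13.4) and Abcb1a (7.79).

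**Figure D1:**
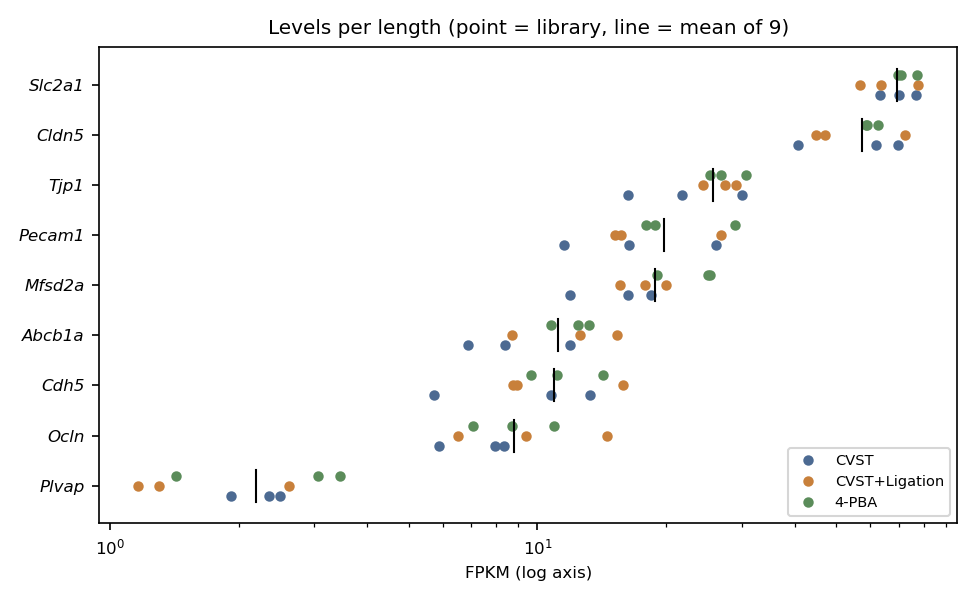
FPKM of the 9 barrier genes on a log axis, with 1 point per library coloured by group and a line at the mean of the 9 libraries. Slc2a1 and Cldn5 lie highest, at 56.8 to 77.6 and 40.6 to 72.5 FPKM, and Plvap lowest, at 1.17 to 3.45 FPKM.

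Among the tight junction members, Cldn5 (chr16:18776847-18778262, plus strand, GRCm38) encodes the claudin that dominates the brain endothelial junction. Its CPM in replicates 1, 2 and 3 was 27.2, 45.7 and 42.5 in CVST, 30.7, 46.0 and 30.1 in CVST+Ligation, and 37.5, 38.4 and 39.0 in 4-PBA. The 3 4-PBA libraries lay within 1.5 CPM of one another and inside the range of both other groups, whose SDs were 9.88 and 9.0 CPM against 0.753 CPM. Whether the spread itself differed was not tested. Ocln (chr13:100496507-100552718, minus strand) encodes occludin. Its CPM was 12.8, 13.0 and 9.65 in CVST, 14.6, 22.0 and 10.5 in CVST+Ligation, and 16.7, 11 and 13.0 in 4-PBA. Replicate 2 of CVST+Ligation was the highest library, and the 3 groups overlapped.

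Tjp1 (chr7:65296165-65527781, minus strand) encodes ZO-1, the scaffold that neural and other cells also make. Its CPM was 124, 166 and 94.4 in CVST, 161, 147 and 138 in CVST+Ligation, and 166, 139 and 142 in 4-PBA. The low library was replicate 3 of CVST, which also showed a lower level of long genes in general, by 0.26 on the log2 scale at 5000 bases. With a correction for gene length, the Tjp1 difference between CVST+Ligation and CVST was 0.08 on the log2 scale, against 0.22 without it. The part of gene length in the low Tjp1 value was not tested.

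The transport members gave the 1 unadjusted call of the set. Mfsd2a (chr4:122946850-122961188, minus strand) encodes the lysolipid transporter that carries docosahexaenoic acid into the brain and keeps vesicle traffic low. Its CPM was 19.6, 26.2 and 31.1 in CVST, 28.6, 31.0 and 25.6 in CVST+Ligation, and 30.0, 40.2 and 38.3 in 4-PBA. Replicates 2 and 3 of 4-PBA were above every other library, while replicate 1 of 4-PBA was below replicate 3 of CVST, so the groups overlapped. Slc2a1 (chr4:119108711-119137983, plus strand), which the choroid plexus epithelium also expresses, was at 117, 104 and 98.4 CPM in CVST, 84.1, 112 and 96.5 CPM in CVST+Ligation, and 101, 104 and 109 CPM in 4-PBA. It varied least of the 9, by 1.39-fold from the lowest to the highest library. Abcb1a (chr5:8660077-8748575, plus strand) encodes the efflux pump P-glycoprotein. Its CPM was 33.0, 45.7 and 27.7 in CVST, 48.1, 57.1 and 34.3 in CVST+Ligation, and 49.6, 47.4 and 39.3 in 4-PBA. The groups overlapped, with replicate 3 the lowest library in each. Its close copy Abcb1b was listed at 3.30 to 10.4 CPM, and how reads that match both were counted is not stated, so the Abcb1a level is uncertain to that extent.

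The endothelial identity members moved as a pair from library to library. Pecam1 (chr11:106654217-106750628, minus strand) encodes CD31, an adhesion molecule of all endothelium. Its CPM was 37.3, 58.3 and 26.9 in CVST, 33.6, 57.8 and 35.7 in CVST+Ligation, and 41.1, 39.7 and 61.6 in 4-PBA. Cdh5 (chr8:104101625-104144511, plus strand) encodes VE-cadherin of the adherens junction. Its CPM was 25.9, 31.3 and 14.2 in CVST, 21.0, 36.1 and 21.2 in CVST+Ligation, and 25.6, 22.5 and 32 in 4-PBA. Both were lowest in replicate 3 of CVST, and each group held a high library for both genes, replicate 2 in CVST and CVST+Ligation and replicate 3 in 4-PBA. In whole tissue, fewer endothelial cells and less RNA of a gene per cell cannot be told apart.

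Plvap (chr8:71497765-71511752, minus strand) encodes the diaphragm protein of fenestrae and caveolae, which the mature barrier lacks and the vessels of choroid plexus and pituitary keep. Its CPM was 3.19, 3.28 and 2.66 in CVST, 1.53, 3.35 and 1.76 in CVST+Ligation, and 1.84, 4.50 and 3.85 in 4-PBA, from 34 to 107 counts a library. The counting error alone was wide at this depth, with an exact Poisson 95% interval of 1.08 to 2.11 CPM in replicate 1 of CVST+Ligation and 3.69 to 5.44 CPM in replicate 2 of 4-PBA. The summed choroid plexus markers were 797 to 989 CPM in CVST, 23.6 to 868 CPM in CVST+Ligation, and 3168, 686 and 455 CPM in replicates 1, 2 and 3 of 4-PBA. The pituitary hormone genes summed to 2.66 to 30.2, 2.19 to 46.0 and 14.7 to 251 CPM in the 3 groups. Their part in the Plvap level was not tested. Plvap overlaps Gtpbp3 on the opposite strand. Gtpbp3 had 288 to 407 counts a library, and the methods give an orientation mode for the alignment but no strand setting for the counting.

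**Figure D2:**
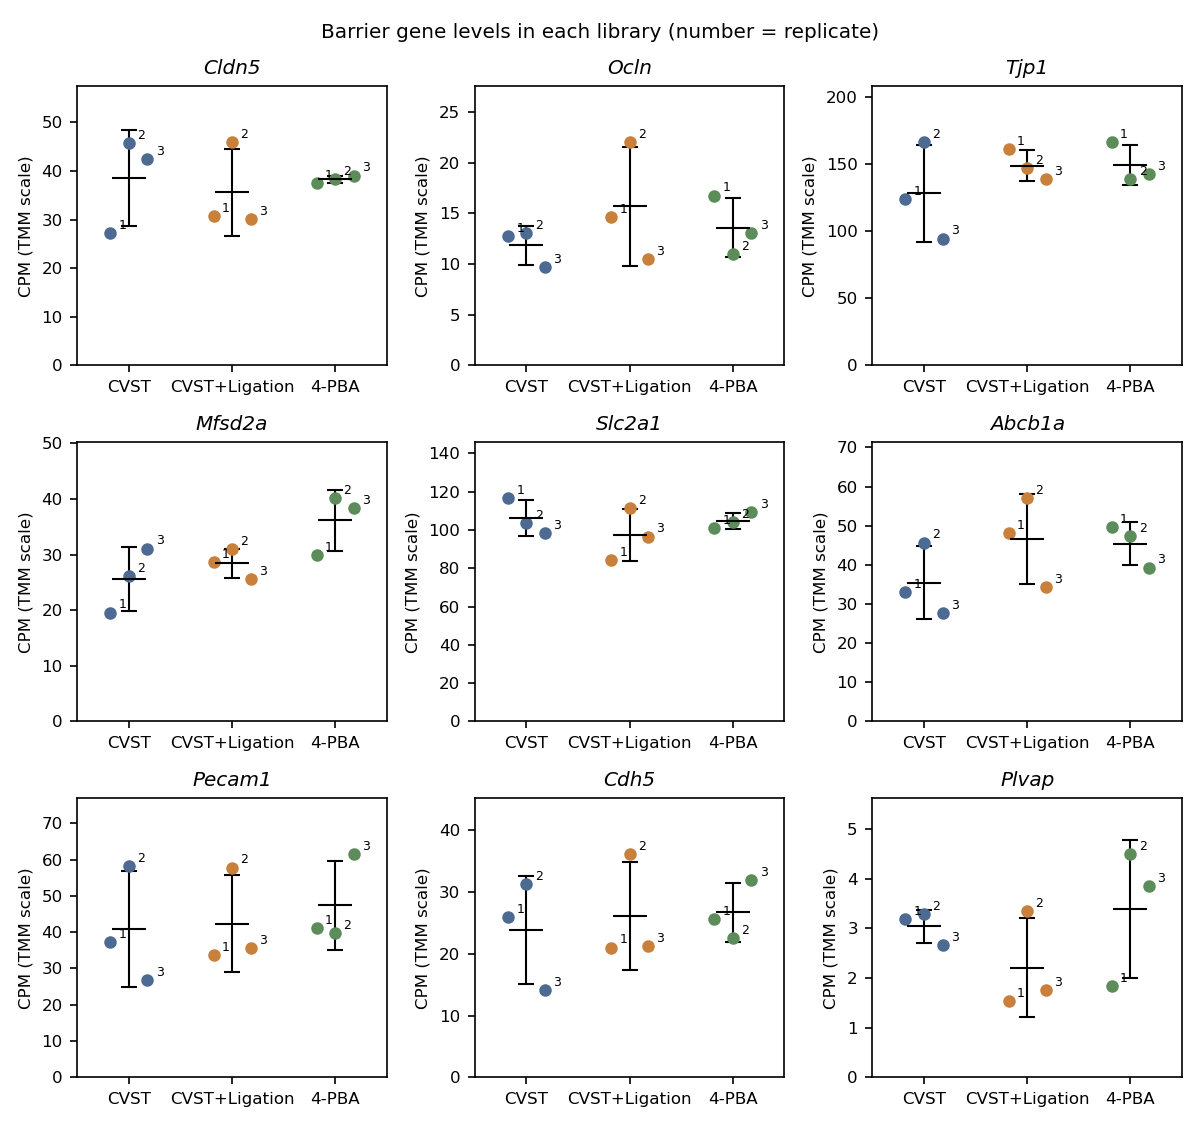
CPM (TMM scale, linear axis from 0) of the 9 barrier genes in each library, numbered by replicate, with the mean and SD of the 3 libraries of a group. The ranges of the groups overlap in every panel, and for Mfsd2a replicates 2 and 3 of 4-PBA lie highest, at 40.2 and 38.3 CPM.

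The first comparison asked what ligation added to thrombosis. None of the 9 barrier genes passed at an unadjusted p below 0.05 by edgeR's quasi-likelihood test in CVST+Ligation against CVST, where 9.64% of the 14746 genes tested did. After Benjamini-Hochberg adjustment 0 of 9 passed, against 0.0203% of all genes (3 genes). All 3 were on the list of midbrain dopamine neuron genes. No member had groups that did not overlap, against 13.8% of all genes. Abcb1a had the smallest p of the 9, with a log2 fold change of 0.39 (SE 0.23, 95% interval -0.13 to 0.91), an unadjusted p of 0.125 and a Benjamini-Hochberg adjusted p of 0.615 in edgeR's fit. Ocln was at 0.41 (SE 0.29, interval -0.23 to 1.05). Cldn5, at -0.11 (SE 0.23, interval -0.62 to 0.40), had a fold of 0.925 with an interval of 0.650 to 1.32, so neither a fall by more than that nor a larger rise lay within it. Slc2a1 had the narrowest interval, -0.43 to 0.17, and Plvap the widest, -1.41 to 0.48 around -0.46. The difference was above 0 for 6 of the 9, and their median was 0.13 beside 0.00 over all genes tested. Without replicate 2 of CVST, Tjp1 (0.45, SE 0.17) and Abcb1a (0.62, SE 0.23) passed the unadjusted edgeR test, and without replicate 3 of CVST+Ligation, Ocln (0.63, SE 0.27) and Abcb1a (0.57, SE 0.23) did. The adjusted p of these fits lay between 0.405 and 0.576. Other settings gave a smaller difference for Abcb1a, short of the unadjusted threshold. It was 0.29 (SE 0.21) with the correction for gene length. Without replicate 3 of CVST and replicate 2 of CVST+Ligation together, chosen after seeing the data, it was 0.0485 (SE 0.22).

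The second comparison asked what 4-PBA changed after ligation. No barrier gene passed the unadjusted edgeR test in 4-PBA against CVST+Ligation, where 3.23% of all genes did. At the adjusted level 0 of 9 passed and 0% of all genes. Groups that did not overlap were found for 0 of 9 and for 7.73% of all genes. Mfsd2a came closest, at 0.35 (SE 0.20, interval -0.09 to 0.79, Benjamini-Hochberg adjusted p = 0.9998 by edgeR's quasi-likelihood test). Plvap had the largest difference, 0.63, with an interval of -0.31 to 1.57. It passed without replicate 2 of CVST+Ligation (1.07, SE 0.42, adjusted p = 0.460) or without replicate 1 of 4-PBA (0.94, SE 0.39, adjusted p = 0.997) in the same edgeR fit, each of them the library of its group that lay nearest the other group. Tjp1, Abcb1a and Cdh5 were within 0.04 of 0 on the log2 scale, with intervals of -0.42 to 0.43, -0.56 to 0.49 and -0.67 to 0.74. The median of the 9 was 0.11 beside -0.02 over all genes.

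The third comparison set 4-PBA with ligation against thrombosis alone, and it shares the 4-PBA libraries with the second and the CVST libraries with the first. One of the 9 barrier genes, Mfsd2a, passed the unadjusted test, where 15.4% of all genes did. Its mean was 36.2 ± 5.45 CPM in 4-PBA and 25.6 ± 5.77 CPM in CVST (SD, n = 3 each). The log2 fold change was 0.50 (SE 0.20, interval 0.06 to 0.94), a fold of 1.41 with an interval of 1.04 to 1.92, with an unadjusted p of 0.0310 and a Benjamini-Hochberg adjusted p of 0.266 by edgeR's quasi-likelihood test. At the adjusted level 0 of 9 members passed, against 0.122% of all genes (18 genes), and 0 of 9 had groups that did not overlap, against 23.7%. Of the 18 genes, 5 were on the list of midbrain dopamine neuron genes and 2 on that of hypothalamic neuron genes. The Mfsd2a call was lost without replicate 1 of CVST (0.35, SE 0.19), replicate 2 of CVST (0.53, SE 0.24), replicate 2 of 4-PBA (0.42, SE 0.23) or replicate 3 of 4-PBA (0.45, SE 0.23). Its adjusted p ran from 0.0995 to 0.567 over the 18 alternatives. Without replicate 2 of CVST, Tjp1 (0.47, SE 0.17) and Abcb1a (0.60, SE 0.23) passed the unadjusted test in its place. Cldn5 and Slc2a1 differed by -0.01 and -0.02, with intervals of -0.52 to 0.50 and -0.32 to 0.28. The median of the 9 was 0.20 beside -0.01 over all genes.

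**Figure D3:**
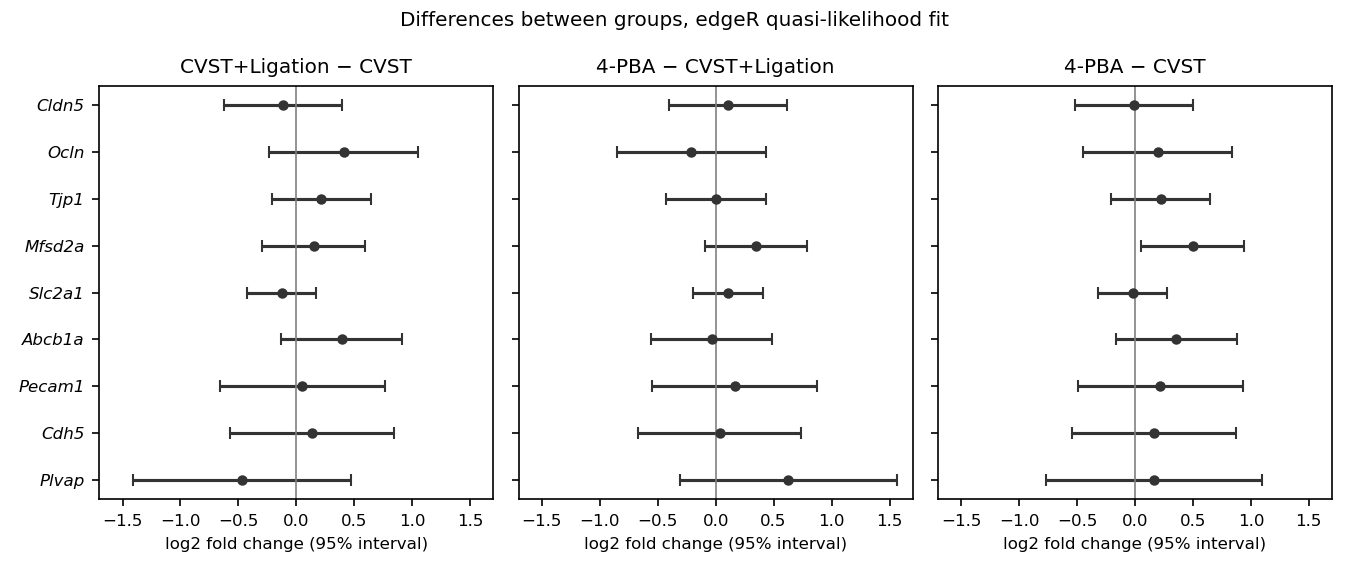
Log2 fold change of the 9 barrier genes in the 3 comparisons, with 95% intervals from edgeR's quasi-likelihood fit. In this fit the interval of Mfsd2a in 4-PBA against CVST, 0.06 to 0.94, is the only one that leaves out 0.

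Some libraries stood high or low for several members at once. Every one of the 9 was above its own mean over the libraries in replicate 2 of CVST+Ligation, and every one was below it in replicate 3 of the same group. Replicate 3 of CVST had 7 of 9 below their mean and held the lowest value of 5 of them. The sum of the 24 pan-endothelial genes, a list that holds none of the 9 members, moved alongside. It was 513, 660 and 405 CPM in CVST, 507, 626 and 455 CPM in CVST+Ligation, and 559, 529 and 616 CPM in 4-PBA. The groups thus overlapped in their total endothelial signal. As a description over the 9 libraries, which also share depth, region and group, Pearson's r of log2 CPM with this sum was 0.95 for Pecam1 and 0.94 for Cdh5, and 0.16 for Mfsd2a. Pecam1 and Cdh5 correlated with each other at 0.94, and Tjp1 and Abcb1a at 0.82. Other pairs did not follow each other, such as Slc2a1 with Tjp1 (-0.17), Mfsd2a (-0.10) and Abcb1a (-0.04). Over all 36 pairs of members the median r was 0.39, with a range of -0.19 to 0.94.

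**Figure D4:**
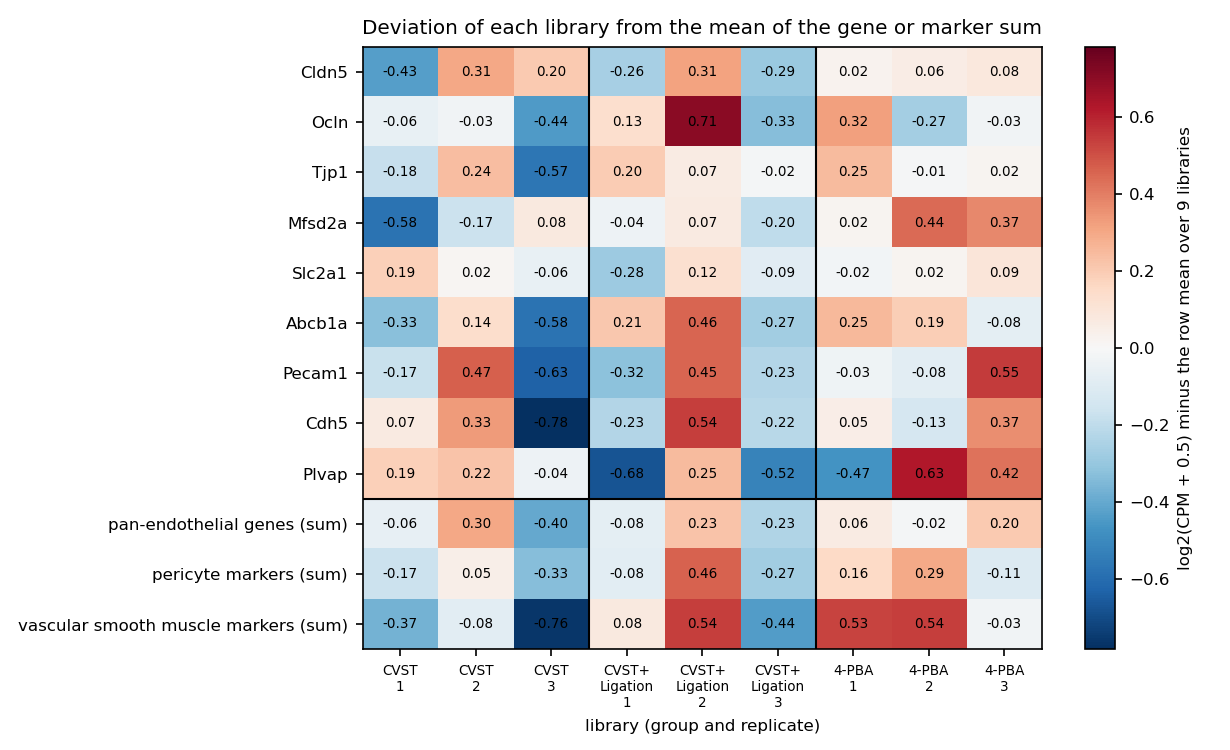
Deviation of each library from the mean over the 9 libraries, as log2(CPM + 0.5), for the 9 barrier genes and for 3 summed lists of vascular markers. Replicate 2 of CVST+Ligation is above the mean for all 9 genes and replicate 3 of the same group below it for all 9, and the pan-endothelial sum is 0.23 above and 0.23 below in those libraries.

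The barrier members were also set against the pan-endothelial sum of the same library. The log2 ratio of Mfsd2a to the sum was -4.71, -4.66 and -3.71 in CVST, -4.15, -4.34 and -4.15 in CVST+Ligation, and -4.22, -3.72 and -4.01 in 4-PBA. The mean difference of this log2 ratio between 4-PBA and CVST was 0.38, and replicate 3 of CVST had the highest ratio of all. For Abcb1a the ratio was -3.96, -3.85 and -3.87 in CVST and -3.40, -3.45 and -3.73 in CVST+Ligation, so that the groups did not overlap and differed by 0.37 in the mean. It was the 1 member of 9 with non-overlapping ratios in that comparison, where 9.19% of all genes had them, and 0 of 9 had them in 4-PBA against CVST+Ligation and against CVST, where 6.61% and 14.6% of all genes had them. With the log2 of the pan-endothelial sum as a covariate, an analysis chosen after seeing the data, the edgeR fold change of Abcb1a in CVST+Ligation against CVST was 0.38 (SE 0.17), short of the unadjusted threshold, and that of Mfsd2a in 4-PBA against CVST was 0.51 (SE 0.21), past it.

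The genes whose log2 CPM was most like that of a member over the 9 libraries were sought among all other genes tested. Pearson's r was 0.98 for Prdx4, 0.97 for Babam1 and 0.94 for Fn3k with Cldn5. For Tjp1 the nearest were Atf1 and Rab23, at 0.95 each, and Spag9, at 0.94. For Plvap they included Ctsl at 0.94 and Lgals9 at 0.93. None of the genes named here is on the pan-endothelial list, and they were picked from 14737 candidates.

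The wider barrier lists are set beside the shares of all genes that passed the unadjusted test, which were 9.64%, 3.23% and 15.4% in the 3 comparisons in the order above. No list was tested against the other genes. Of 20 tight and adherens junction partners, 3 (15%) passed in CVST+Ligation against CVST, all higher, with a list median of 0.15. The count was 5 without replicate 1 of CVST+Ligation and by DESeq2, and 6 with the replicate block. Patj, a polarity protein of the junction, was at 6.46 to 7.38 CPM in CVST and 19.6, 118 and 24.3 CPM in CVST+Ligation (log2 fold change 2.99, SE 0.62). The library at 118 CPM was replicate 2, which also held the cerebellar sum of 1468 CPM, and without it the difference was 1.69 and still passed. The dopamine neuron sum was higher in the same group as Patj, at 18 to 19.5 CPM in CVST and 168 to 205 CPM in CVST+Ligation, and the part of brain region in the Patj value was not tested. Cgn, the junction plaque protein cingulin, differed by 0.83 (SE 0.26) and Jam2, a junctional adhesion molecule, by 0.49 (SE 0.18). Without that library Cgn still passed, at 0.58, and Jam2 did not, at 0.28. The call of Jam2 was also lost without replicate 1 (0.43) or replicate 3 (0.44) of CVST. In 4-PBA against CVST, 6 of the 20 passed (30%), 5 of them higher, and the median was 0.21. The lower gene, Ctnnd1, had 1 to 4 counts a library in 4-PBA and 10 to 15 in CVST, so that no fold is given. Of the 18 genes with a mean of at least 10 counts in both groups, 5 passed (27.8%). Patj (2.88), Cgn (0.91) and Jam2 (0.63) were again the first by p, and both comparisons use the same CVST libraries. Outside the naming rule, and chosen after their values were seen, Jam3 (0.60) and Ctnnd1 were also among those that passed. In 4-PBA against CVST+Ligation 1 of 20 (5%), Jam3, passed, at 0.48 (SE 0.20), and this call was lost without replicate 1 (0.34) or 3 (0.47) of CVST+Ligation or replicate 1 (0.44) or 2 (0.45) of 4-PBA. The count for the list was 4 without replicate 2 of CVST+Ligation. None of the list calls of any comparison passed after Benjamini-Hochberg adjustment in edgeR's fit.

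Transport and vesicle genes came next. Of 20 barrier transporters and receptors, 0 passed in the first comparison and 0 in the second, and in 4-PBA against CVST 1 (5%) did. It was Slc3a2, the heavy chain of large amino acid transporters, which fell by 0.42 on the log2 scale (SE 0.15). That call was lost with 3 of 6 libraries left out, replicates 1 and 3 of CVST and replicate 1 of 4-PBA, with differences of -0.53 to -0.33 over the 6. Of 11 caveolae and transcytosis genes 0 passed in each of the 3 comparisons by the unadjusted edgeR test, with medians of 0.01, 0.14 and 0.04. In 4-PBA against CVST this count was above 0 in 11 of the 18 alternatives, and at most 2. Of the 24 pan-endothelial genes, Icam2, an adhesion molecule of resting endothelium, was the 1 that passed in any comparison. It was at 5.34 to 7.86 CPM in 4-PBA and 3.57 to 4.23 CPM in CVST, a difference of 0.84 (SE 0.25). The medians of that list were 0.06, 0.11 and 0.26.

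The Wnt and beta-catenin list, the signal that maintains the program, had 1, 2 and 3 of 20 genes past the unadjusted test in the 3 comparisons (5%, 10% and 15%). With 1 library left out the counts ran from 0 to 2, 0 to 2 and 2 to 5, so that none of the shares is read against that of all genes. Wnt7a, a ligand made by neural cells, was higher in CVST+Ligation than in CVST by 0.81 (SE 0.28). It was at 17.8 CPM in replicate 2 of CVST+Ligation, the library with the cerebellar sum of 1468 CPM, against at most 10.2 CPM in the others of that group. Without that library the difference was 0.48 and the list had 0 calls, and without replicate 3 of CVST it was 0.68 and did not pass. Lef1, a nuclear effector of the pathway, was at 7.31 to 8.14 CPM in CVST, 8.14 to 12.0 CPM in CVST+Ligation and 11.4 to 16.4 CPM in 4-PBA. It was higher in 4-PBA than in CVST+Ligation by 0.61 (SE 0.22) and than in CVST by 0.93 (SE 0.22). Apcdd1, a target and inhibitor of the pathway, was lower in 4-PBA than in CVST+Ligation and fell by 0.40 (SE 0.16). The pathway feedback gene Nkd1 (0.61, SE 0.18) and the co-receptor Lrp5 (0.43, SE 0.17) were higher in 4-PBA than in CVST. Lef1 and Wnt7a are also made by neurons of particular regions, and the hypothalamic and dopamine neuron sums moved with these groups, the latter at 18 to 19.5, 168 to 205 and 225 to 228 CPM. Their part and that of the cerebellar sum were not tested. With 1 library left out, the calls of Lef1 in 4-PBA against CVST+Ligation (0.52 to 0.82), Apcdd1 (-0.47 to -0.29) and Lrp5 (0.39 to 0.49) were each lost in 4 of 6 fits, and those of Nkd1 and of Lef1 in 4-PBA against CVST in 0 of 6.

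Activation and growth factor lists held single genes that passed. Of 12 endothelial activation genes tested of 14, 0 passed in CVST+Ligation against CVST, 2 (16.7%) in 4-PBA against CVST+Ligation and 3 (25%) in 4-PBA against CVST. Sele, which encodes E-selectin, is in both counts as lower in 4-PBA, but from 0 to 18 counts a library, so that no fold is given. Of the genes with a mean of at least 10 counts in both groups, 1 of 10 (10%) and 2 of 11 (18.2%) passed. Vcam1, an adhesion molecule for leukocytes, was higher in 4-PBA, at 73.4 to 81.4 CPM against 61.4 to 63.8 CPM in CVST+Ligation (0.31, SE 0.11) and 56.2 to 66.1 CPM in CVST (0.33, SE 0.11). Thbd, the anticoagulant receptor thrombomodulin, was higher in 4-PBA than in CVST by 0.74 (SE 0.31). With 1 library left out, the calls of Vcam1 were lost in 3 of 6 fits in each comparison (0.28 to 0.37 and 0.27 to 0.39) and that of Thbd in 4 of 6 (0.52 to 1.01). Of 14 VEGF, angiopoietin and protease genes, Timp3, an inhibitor of metalloproteinases, was higher in CVST+Ligation than in CVST (0.71, SE 0.25) and in 4-PBA than in CVST (1.09, SE 0.25). In the latter comparison the membrane metalloproteinase Mmp14 (0.61, SE 0.20) and the Tie2 ligand Angpt1 (1.31, SE 0.58) were higher too, and no gene of the list passed in 4-PBA against CVST+Ligation. The list thus had 7.14%, 0% and 21.4% called. In CVST+Ligation against CVST the count was 3 without replicate 2 of CVST+Ligation, with total counts and by DESeq2, so that its share is not read against that of all genes. The call of Timp3 there was lost without replicate 3 of CVST (0.52) or replicate 3 of CVST+Ligation (0.61), and that of Angpt1 in 4-PBA against CVST in 4 of 6 fits (0.96 to 1.97).

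**Figure D5:**
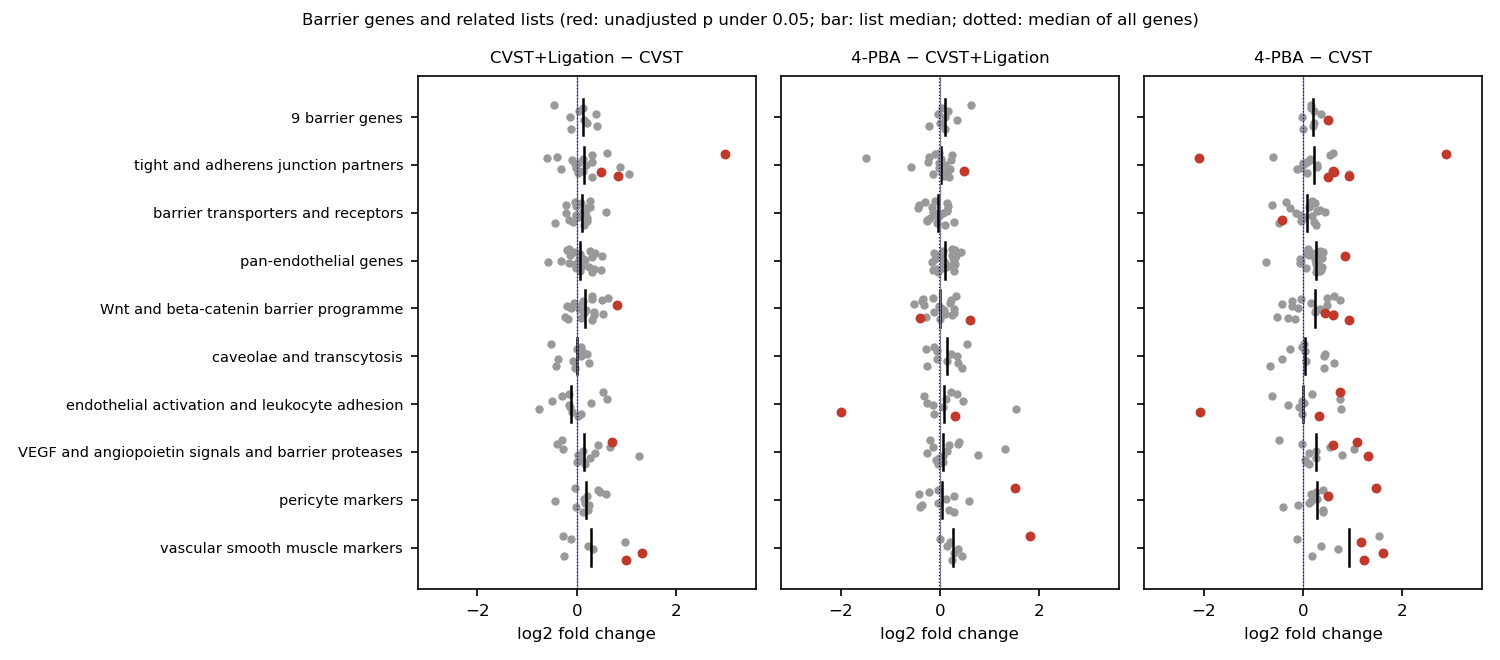
Log2 fold changes of the 9 barrier genes and of 9 related lists in the 3 comparisons, with 1 point per gene, red where the unadjusted p is under 0.05, a bar at the list median and a dotted line at the median of all genes. The barrier gene medians are 0.13, 0.11 and 0.20, and the junction partners hold 3, 1 and 6 red points of 20.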

How the data were processed

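RNA of mouse brain was sequenced in 9 libraries, 3 in each group. Per the methods, 3 mice of each group went to sequencing, so the spread within a group is between mice. Per the methods and the submitters' processing notes, the authors used fastp for read filtering, HISAT2 (orientation mode) for alignment, StringTie for assembly and RSEM for quantification, on mm10 (GRCm38), and versions are not given in the sources used here. The methods name RSEM for the abundance values. Which program made the table of whole-number counts, and its strand setting, is not stated. The authors deposited raw counts for 20731 symbols, and FPKM that the methods call TPM. The deposited FPKM equal the count over the library total and 1 length per gene.

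The count table was fitted by edgeR 4.0.16, run under R 4.3.3 (TMM, filterByExpr, 14746 genes kept, quasi-likelihood fit of the 3 groups without covariates, Benjamini-Hochberg adjustment over all genes tested). SEs and 95% intervals came from the same fit, whose common biological coefficient of variation was 0.287. Genes counted as called had p below 0.05, unadjusted or adjusted as stated. An exact permutation test of 3 against 3 libraries cannot give a p below 0.1. On simulated data (CVST+Ligation against CVST, 14598 genes) 22.2% of 2-fold and 79.0% of 4-fold changes were recovered at the adjusted level, and 95.3% of intervals held the true value. The simulated counts were drawn with the spread that this fit estimated, around a common mean per gene apart from the changes set. They held no regional differences between libraries. The coverage was therefore built in and does not show that the intervals hold for these libraries.

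The 9 members and all lists were chosen with earlier results of these data known. The naming rule was all 9 members, of each barrier list at most 3 genes with the smallest unadjusted p under 0.05, and the 3 genes most correlated with each of Cldn5, Tjp1 and Plvap. Some genes that met the rule or passed a test are not reported here. Marker sums stand for cell types and regions. Alternatives were DESeq2 1.42.0, limma 3.58.1 on log2(FPKM + 1) and log2(FPKM + 0.1), other scalings and filters, only the groups compared, a correction for length, a replicate block, and each library left out. Gene positions are from GENCODE (GRCm38), and start sequences from RefSeq (GRCm38.p6). Library totals were 18100739 to 25091498 counts, so 3 counts correspond to 0.114 to 0.163 CPM. Counting intervals cover counting error only. Within a group no pair of libraries agreed within sampling noise (chi-square per degree of freedom at least 22.3).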

Additional observations from a re-analysis of the deposited data

How the results depend on the processing

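With the other settings listed under processing, the adjusted calls stayed at 0 of 9 barrier genes in each comparison. The unadjusted count for CVST+Ligation against CVST was 1 with a replicate block (Abcb1a, 0.39) and 0 to 2 with 1 library left out. For 4-PBA against CVST+Ligation it was 0 to 1 with 1 library left out, and for 4-PBA against CVST it was 2 with the replicate block (Mfsd2a and Abcb1a) and 0 to 2 with 1 library left out. Replicate numbers were not taken as pairs in the main fit. Of 9 same-numbered pairs of libraries 4 correlated above 0.1 (range -0.06 to 0.33), and of 18 differently numbered pairs 1 did (range -0.40 to 0.12). These correlations do not settle whether the numbers are pairs. The replicate block moved the unadjusted calls over all genes from 1422 to 1765, 476 to 521 and 2271 to 2644 in the 3 comparisons. Leaving out replicate 3 of CVST and replicate 2 of CVST+Ligation together, chosen after seeing the data, gave 1 call in the first comparison (Slc2a1, -0.31) and 1 in the second (Plvap, 1.06).

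Of 486 recomputed fold changes of members, 52 changed sign, all of them where the 95% interval of the difference held 0, and the cause was not tested. Without those libraries together, the first comparison gave -0.0613 for Ocln, -0.48 for Pecam1 and -0.46 for Cdh5, the second 0.11 for Ocln, -0.0026 for Tjp1 and 0.14 for Abcb1a, and the third 0.0550 for Cldn5, -0.0228 for Pecam1 and -0.11 for Cdh5. With the pan-endothelial covariate, the second gave -0.0870 for Tjp1, -0.0106 for Pecam1 and -0.13 for Cdh5, and the third -0.0106 for Cdh5. In 4-PBA against CVST+Ligation, Abcb1a was 0.017 and 0.021 by limma on FPKM with pseudocounts 1 and 0.1. In 4-PBA against CVST, Cldn5 was 0.0013 with DESeq2's size factors, 0.0648 with total counts, 0.0014 by DESeq2, 0.0048 with only these groups, 0.0278 with the replicate block, and 0.0983 and 0.10 by limma. Slc2a1 was 0.0516 with total counts, 0.0536 and 0.0543 by limma.

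With 1 library left out, the log2 fold changes that crossed 0 ran in CVST+Ligation against CVST from -0.34 to 0.0314 for Cldn5, -0.0145 to 0.29 for Mfsd2a, -0.24 to 0.40 for Pecam1, -0.18 to 0.38 for Cdh5. They ran in 4-PBA against CVST+Ligation from -0.00198 to 0.35 for Cldn5, -0.43 to 0.12 for Ocln, -0.0639 to 0.0796 for Tjp1, -0.21 to 0.15 for Abcb1a, -0.0684 to 0.47 for Pecam1, -0.12 to 0.36 for Cdh5. They ran in 4-PBA against CVST from -0.19 to 0.15 for Cldn5, -0.0896 to 0.0612 for Slc2a1, -0.0229 to 0.58 for Pecam1, -0.11 to 0.43 for Cdh5, -0.0902 to 0.47 for Plvap.

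Over all alternatives the background ran from 1183 to 1845 unadjusted calls in the first comparison, 256 to 2050 in the second and 1517 to 3305 in the third, and from 0 to 264, 0 to 22 and 2 to 967 adjusted calls.

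The unadjusted counts of the 7 barrier lists were small and moved with the setting. With 1 library left out, the tight and adherens junction list had 2 to 5, 0 to 4 and 4 to 7 genes past the test in the 3 comparisons, the Wnt list 0 to 2, 0 to 2 and 2 to 5, the activation list 0 to 2, 0 to 2 and 1 to 3, and the VEGF list 1 to 3, 0 to 1 and 2 to 4. The transporter list had 0 to 1, 0 to 1 and 0 to 3, the pan-endothelial list 0 to 1, 0 to 1 and 1 to 3, and the caveolae list 0 to 1, 0 to 2 and 0 to 2. Over all alternatives the junction list ran from 2 to 6, 0 to 7 and 4 to 9. Counting only genes with a mean of at least 10 counts in each group compared, chosen after seeing the data, took out the calls of Sele and Ctnnd1.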

Other observations

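Marker lists of vessel wall cells that surround the barrier endothelium were also followed. Of 12 pericyte markers, 0, 1 and 2 passed the unadjusted edgeR test in CVST+Ligation against CVST, 4-PBA against CVST+Ligation and 4-PBA against CVST, all higher (0%, 8.33% and 16.7%, beside 9.64%, 3.23% and 15.4% of all genes). The proteoglycan gene Cspg4 (0.50) and Art3 (1.47) were the 2 of the last comparison, Art3 at 5.69 to 35.6 CPM in 4-PBA and 5.21 to 6.25 CPM in CVST, ranges that overlap. Of 8 vascular smooth muscle markers, 2, 1 and 3 passed, all higher (25%, 12.5% and 37.5%, beside the same shares of all genes). The 1 of the second comparison was Pln, at 0.457 to 3.58 CPM in 4-PBA and 0.454 to 0.615 CPM in CVST+Ligation, ranges that overlap. How these counts move with 1 library left out was not examined, and no share was tested against that of all genes. Acta2, smooth muscle actin, was at 21.8 to 42.7 CPM in CVST, 36.0 to 91.2 CPM in CVST+Ligation and 50.6 to 89.9 CPM in 4-PBA. Myh11, smooth muscle myosin, was at 10.9 to 20.5, 19.9 to 56.4 and 25 to 56.7 CPM in the same order. Other marker sums were high in some of the same libraries. The 10 meningeal fibroblast markers summed to 117, 161 and 145 CPM in CVST, 223, 330 and 126 CPM in CVST+Ligation, and 192, 430 and 154 CPM in 4-PBA, and the smooth muscle markers to 120, 146 and 91.3, 163, 226 and 114, and 224, 226 and 152 CPM. The red blood cell genes were at 154 to 186, 152 to 329 and 167 to 211 CPM. The part of these in the smooth muscle and pericyte values was not tested. The genes named above fell outside the naming rule and were chosen after their values were seen, and none passed after Benjamini-Hochberg adjustment in edgeR.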
